A study of Mus musculus with 13 samples.

Results

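The genes of the Pde4 family of phosphodiesterases, Pde4a, Pde4b, Pde4c and Pde4d, were described by the binding sites of the glucocorticoid receptor (GR) in mouse embryonic fibroblasts. Every peak of chromatin immunoprecipitation and sequencing (ChIP-seq) that the authors' annotation assigned to one of these 4 symbols was taken, which gave 51 of 26052 peaks. Of these, 48 of 24673 came from the lists of cells given dexamethasone with lipopolysaccharide, and 3 of 1379 from the lists of cells given dexamethasone alone. The family was selected on its number of assigned peaks in these same lists, so the counts and positions are a description and carry no test. Nothing in the files measures the RNA, the protein or the activity of these enzymes.

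The 13 libraries fell into 5 groups by genotype and treatment, all immunoprecipitated with the same commercial antibody against the receptor. Dexamethasone (Dex) is a synthetic ligand of the receptor and was given at 1 µM for 16 h. Lipopolysaccharide (LPS), a bacterial endotoxin that triggers inflammation, was given for 3 h at 100 ng/µl, the unit in the labels. With both agents there were 3 wild-type (GR wt / wt), 4 mutant (GR Zn / Zn) and 2 knockout (GRKO/KO) libraries. Under Dex alone, at the same dose and time, the wild type and the mutant had 2 libraries each. The mutant allele is named for the zinc finger of the DNA-binding domain. Male C57BL/6 embryos of day 13.5 were the source of the cells, freed of head and internal organs and cultured for 7 days, so they are a primary mixture and not a clone. The labels name no inducible or tissue-restricted Cre. The Dex+LPS data were 1 wild-type-specific, 1 shared and 1 mutant-specific list of 200 bp peaks, made from merged libraries after removal of peaks found in knockout cells, and they carry no spread between replicates. No read depth or peak height was used here, and 4 mutant libraries stood against 3 wild-type libraries. Under Dex+LPS, peaks stood at 8 of 8 fibroblast, 4 of 4 endothelial, 3 of 4 epithelial, 3 of 4 neuronal and 2 of 5 macrophage marker genes, where 34.4% of protein-coding genes had one. A peak does not measure expression, so these counts do not check the cell type.

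Pde4 enzymes break down cyclic AMP (cAMP), the messenger through which hormones and prostaglandins activate protein kinase A, Epac and CREB. The family includes long and short isoforms from separate starts, and the short isoforms lack part of the regulatory region in front of the catalytic domain. Inhibitors of these enzymes raise cAMP and are used as anti-inflammatory drugs. Pde4b is known for its induction by LPS in monocytes and macrophages, and glucocorticoids are known to suppress many inflammatory genes.

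The starts around which these peaks lie are shown first, because the positions below are given relative to them. RefSeq's promoter table (build GRCm38.p6, 250 bases before to 50 after a start) held 9 starts for the family, with 4 for Pde4b, 3 for Pde4a and 1 each for Pde4c and Pde4d. A start of Pde4d and a pair from Pde4b are printed 5′ to 3′ on the plus strand, with the receptor half-site AGAACA in capitals. The first line is the only Pde4d start in the table, at chr13:108653927-108654226. The next is the most upstream of the 4 Pde4b starts in the table (chr4:102421305-102421604), and the last is the Pde4b start closest to a peak (chr4:102569810-102570109).
Pde4d: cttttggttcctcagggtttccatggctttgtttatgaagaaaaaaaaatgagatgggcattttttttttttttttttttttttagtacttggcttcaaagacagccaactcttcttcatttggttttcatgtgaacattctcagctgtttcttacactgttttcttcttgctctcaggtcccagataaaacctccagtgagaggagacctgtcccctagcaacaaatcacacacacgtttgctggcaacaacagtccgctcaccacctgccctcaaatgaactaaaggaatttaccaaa
Pde4b, upstream start: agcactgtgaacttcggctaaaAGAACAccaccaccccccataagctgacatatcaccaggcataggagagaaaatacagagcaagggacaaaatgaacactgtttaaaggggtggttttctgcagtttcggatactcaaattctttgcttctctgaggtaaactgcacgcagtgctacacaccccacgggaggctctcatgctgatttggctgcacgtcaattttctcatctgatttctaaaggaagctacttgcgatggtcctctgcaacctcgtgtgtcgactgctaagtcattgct
Pde4b, start near peaks: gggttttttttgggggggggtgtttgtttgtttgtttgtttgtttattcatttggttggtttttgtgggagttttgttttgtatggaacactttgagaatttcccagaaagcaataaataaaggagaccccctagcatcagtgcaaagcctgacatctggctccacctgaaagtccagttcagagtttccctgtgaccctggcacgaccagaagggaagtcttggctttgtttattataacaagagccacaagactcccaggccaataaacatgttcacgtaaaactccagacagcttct
The searched motifs, on both strands, were the full glucocorticoid receptor element, its half-site AGAACA, the AP-1 site TGANTCA, the CREB site TGACGTCA, the NF-kB site and the C/EBP site TTGCNNAA. The half-site can lie within the full element, and the other motifs were searched independently. The half-site was in 3 of the 9 Pde4 promoters, with its first base at -228 and -219 from 2 starts of Pde4b and at -228 from the start of Pde4c, against 19.0% of all 32851 promoters. The other motifs were in 0 of the 9 promoters, where all promoters held them in 0.475% (receptor element), 7.81% (AP-1), 1.79% (CREB), 1.47% (NF-kB) and 10.8% (C/EBP) of cases. No match says only that these letters are not in this window. The peaks themselves lay outside these windows, and their sequences were not used here.

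Most of the family's Dex+LPS peaks were at its longest genes, Pde4d and Pde4b, but this is a count and not a density. Per Mb of gene, Pde4d had 27.7 assigned peaks, Pde4b 21.2 and Pde4a 21.0, the last from a single peak. Wild-type-specific peaks were 40 of the family's 48 Dex+LPS peaks and 18953 of the 24673 over all genes, so they were the majority in both. Under Dex+LPS, 32 peaks at Pde4d were wild-type-specific, 1 was shared and 3 were mutant-specific, and Pde4b had 7, 3 and 1 in the same order. Pde4a had a single wild-type-specific peak, and Pde4c had none in any list. A wild-type-specific peak was thus found at 3 of 4 members, where 30.6% of protein-coding genes had one. Shared peaks were at 2 of 4 members (9.37% of protein-coding genes) and mutant-specific peaks at the same 2 genes (5.36%). Pde4b and Pde4d belong to the 227 protein-coding genes of at least 500 kb. In that class 82.8% of genes had a peak found in the wild type alone, 36.6% had one found in both genotypes and 24.7% had one of the mutant alone.

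**Figure D1:**
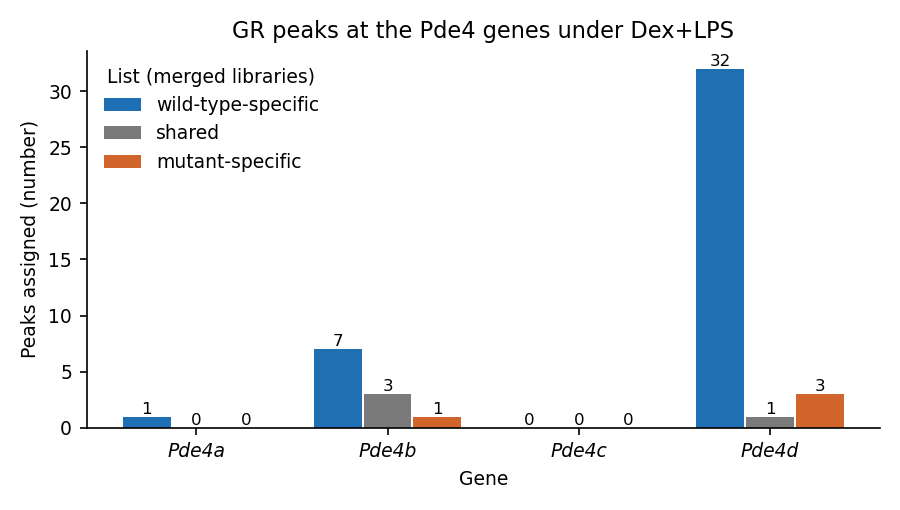
Number of GR peaks (y axis) assigned to each Pde4 gene (x axis) in the 3 merged Dex+LPS lists; bars are single counts with no error. Pde4d stands out with 32 wild-type-specific peaks, Pde4b follows with 7, and Pde4c has none.

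Pde4d (Entrez gene 238871; chromosome 13, 108654177 to 109955969 in RefSeq, mm10) encodes a broadly expressed cAMP phosphodiesterase with many isoforms. Its peaks were spread along the gene, and none lay at the only start that the promoter table held for it. Distances here refer to that start. Starts of other isoforms were not in the promoter table, and the Dex lists begin the gene 204 kb further upstream. Whether peaks inside the gene lie near other starts was not tested. Of the 32 wild-type-specific peaks 27 lay inside the gene and 5 upstream, and all 4 shared and mutant-specific peaks lay inside. In the first, middle and last stretches of the gene, 434 kb each, there were 8, 8 and 11 wild-type-specific peaks. The peak closest to the start (chr13:108693053-108693252) was still 39.0 kb downstream of it, and no peak overlapped the promoter printed above. The upstream peaks lay between -115 and -50.4 kb from the start, and 3 of them (chr13:108598751-108603805) fell within 5.06 kb.

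The spacing of the 36 Dex+LPS peaks assigned to Pde4d, those upstream of the gene included, was uneven. The median distance between neighbouring peak centres was 17.8 kb, 10 neighbours lay under 5 kb apart, and 3 intervals exceeded 100 kb. The longest of these ran 272 kb without a peak, from 140 to 413 kb downstream of the start. It was followed by a lone wild-type-specific peak (chr13:109066720-109066919) and another 176 kb without one. Peaks with neighbours within 20 kb formed 6 groups of 3 or 4 peaks. The longest group (chr13:109242628-109278899) spanned 36.3 kb with 3 wild-type-specific peaks. A group of 3 in the last such stretch (chr13:109764181-109776270, 12.1 kb) was the one in which mutant-specific peaks outnumbered wild-type-specific ones, 2 against 1.

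**Figure D2:**
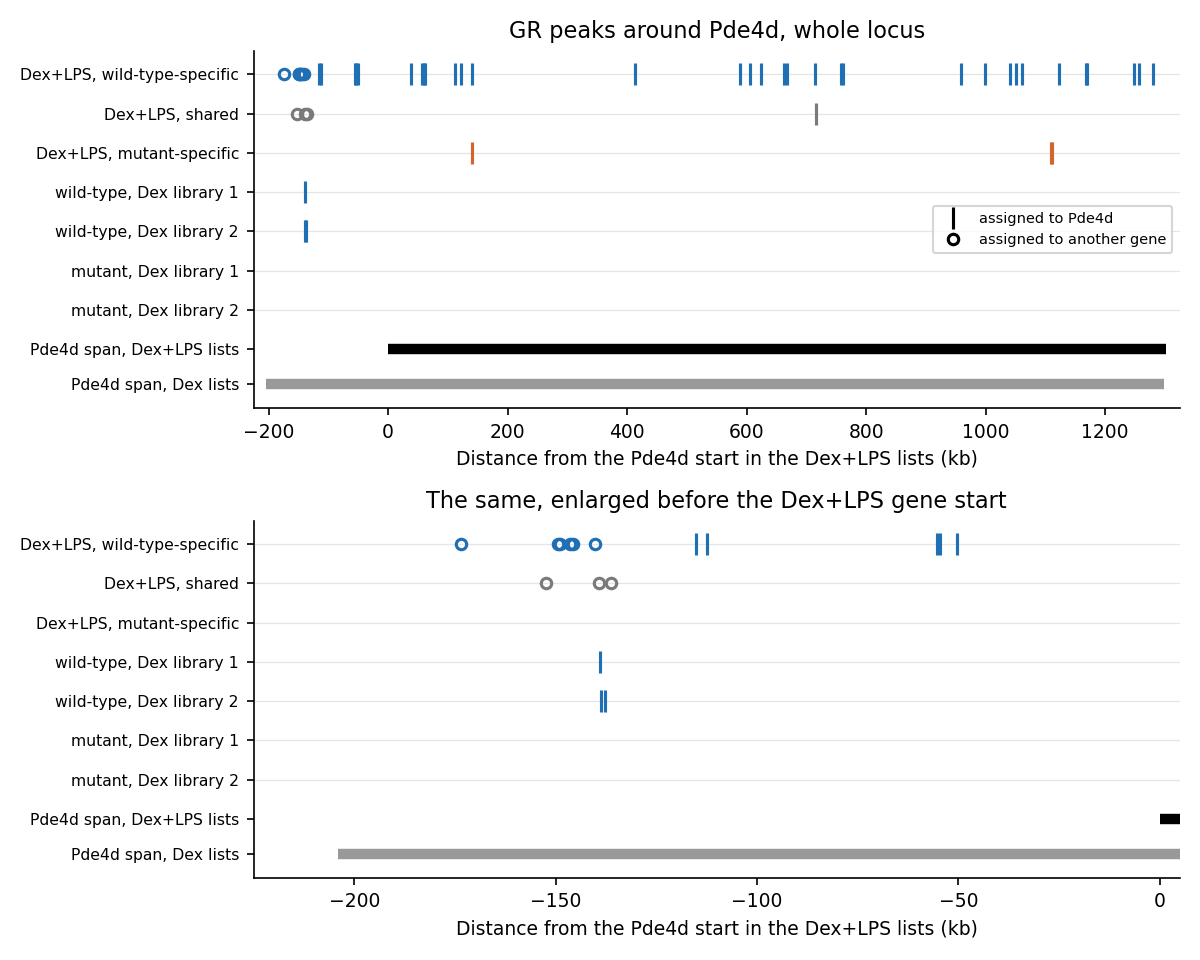
Position of GR peaks around Pde4d in kb from the gene start of the Dex+LPS lists (x axis), with 1 row for each list; bars are peaks assigned to Pde4d and circles peaks assigned to another gene. The bars of the upper panel are 32 wild-type-specific peaks, 27 inside the gene and 5 upstream, against 1 shared and 3 mutant-specific. Its circles are 6 wild-type-specific and 3 shared peaks upstream of the gene. The lower panel shows the Dex peaks beside a run that the Dex+LPS lists assign elsewhere.

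The few peaks of the mutant list in Pde4d lay far from each other, except for neighbouring mutant-specific peaks in the last part of the gene. The shared peak (chr13:109370251-109370450) was 716 kb into the gene, and the centre of a wild-type-specific peak was 1.82 kb from it. A mutant-specific peak (chr13:108794333-108794532), 140 kb from the start, had a wild-type-specific peak centred 0.51 kb away. The other mutant-specific peaks (chr13:109764181-109764380 and chr13:109765616-109765815) lay 1110 and 1112 kb from the start, and the closest wild-type peak was 11.9 and 10.5 kb from their centres. Across all genes, 15.8% of mutant-specific peaks had a wild-type peak within 1 kb, and in the Pde4 family it was 1 of 4. In the other direction, 1 of the family's 40 wild-type-specific peaks had a peak of the mutant list within 1 kb (2.5%, against 2.98% over all genes), and the median distance was 58.8 kb against 107 kb.

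MicroRNA genes lie inside Pde4d, and a peak ended within 2.27 kb of both hairpins that RefSeq lists there. The hairpin of Mir1904 began at 109903809, 0.724 kb from the end of a wild-type-specific peak (chr13:109902885-109903084). The hairpin of Mir582 began at 109324744, 2.27 kb from the end of another (chr13:109322277-109322476). How often other points in this gene lie as near to a peak was not tested. Their mature sequences, from RefSeq (GRCm38.p6), are given with the seed (bases 2 to 8) in capitals, to show that no seed is shared between them.
mmu-miR-1904: gUUCUGCUccucuggagggagg
mmu-miR-582-5p: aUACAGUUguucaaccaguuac
mmu-miR-582-3p: uAACCUGUugaacaacugaac
The lists assigned both peaks to Pde4d, so a peak counted for the phosphodiesterase can lie nearer to a microRNA hairpin than to any start of Pde4d in the table.

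Pde4b (Entrez gene 18578; chromosome 4, 102087332 to 102607275) encodes the family member known for its role in LPS responses of immune cells. Its peaks gathered in the last of 3 equal parts of the gene, in which 3 of the 4 starts in the promoter table lie. The most upstream of these 4 was 334 kb from the gene start of the Dex+LPS lists. The promoter table thus held no start at the 5′ end of the gene, and its set of starts is incomplete. This stretch of 173 kb held 4 of the wild-type-specific peaks, 2 of the shared ones and the mutant-specific one, the middle part of equal length none and the first part 1 wild-type-specific peak. A stretch of 304 kb, between peaks 120 and 423 kb from the gene start, was free of peaks. The first group (chr4:102510962-102528205, 17.2 kb) had 3 wild-type-specific peaks and 1 shared peak. The second (chr4:102555562-102574565, 19.0 kb) had 1 peak of each class and surrounded the start whose promoter is printed last above. The mutant-specific peak of this group (chr4:102571832-102572031) was 1.87 kb downstream of that start, at 102570060. The shared peak (chr4:102574366-102574565) was 4.41 kb downstream of it, and the wild-type-specific peak (chr4:102555562-102555761) was upstream, at -14.4 kb. So both peaks within 5 kb of this start were in the mutant list, and 1 of them in the wild-type list. A further shared peak (chr4:102624303-102624502) and a wild-type-specific peak (chr4:102681998-102682197) lay beyond the end of the gene, and 1 wild-type-specific peak (chr4:102045755-102045954) lay 41.9 kb before it. No Dex library had a peak assigned to Pde4b.

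**Figure D3:**
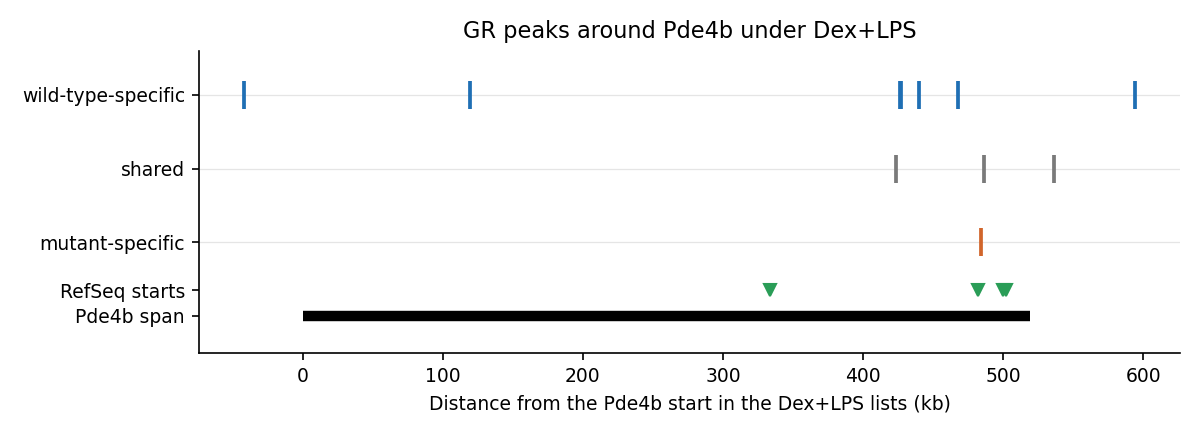
Position of the 11 Dex+LPS peaks assigned to Pde4b in kb from the gene start (x axis), with 1 row for each class and the gene as a bar. Triangles are the starts in RefSeq's promoter table, which holds none at the 5′ end of the gene. Peaks of each class stand around the start at which the mutant-specific peak lies 1.87 kb downstream.

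Pde4a (Entrez gene 18577; chromosome 9, 21165700 to 21213248), a shorter gene of the same enzyme family, had 1 peak. This wild-type-specific peak (chr9:21168694-21168893) lay inside the gene, 3080 bp from the most upstream of its 3 RefSeq starts, and was the peak of the family nearest to the 5′ end of its gene. The nearest peak of the mutant list was 32.7 kb away. Pde4c (Entrez gene 110385; chromosome 8, 70723835 to 70751186) is 27.4 kb long and had no peak in any of the 7 lists; 34.4% of protein-coding genes had a Dex+LPS peak, so a gene without one is common. The closest peak to Pde4c was a shared one (chr8:70698877-70699076) 24.9 kb before it, assigned to Jund, the gene of an AP-1 subunit.

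Fewer wild-type sites were shared with the mutant at Pde4d than at Pde4b, but with wide intervals. At Pde4d 1 of 33 wild-type peaks was shared, 3.03% (exact Clopper-Pearson 95% interval 0.0767 to 15.8%). At Pde4b 3 of 10 were, 30% (6.67 to 65.2%). The intervals overlap, and the difference was not tested because the genes were chosen with these counts known. The family as a whole shared 4 of 44, 9.09% (2.53 to 21.7%), and the list of all peaks 15.7% (15.2 to 16.2%). Genes of at least 500 kb shared 13.2% (11.3 to 15.2%). Chromosome 13, where Pde4d lies, shared 19.6% (17.6 to 21.6%). Mutant-specific peaks made up 8.33% of the family's 48 Dex+LPS peaks (2.32 to 19.98%) and 8.86% of all. These intervals cover counting error only, and neighbouring peaks of 1 gene are not independent.

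**Figure D4:**
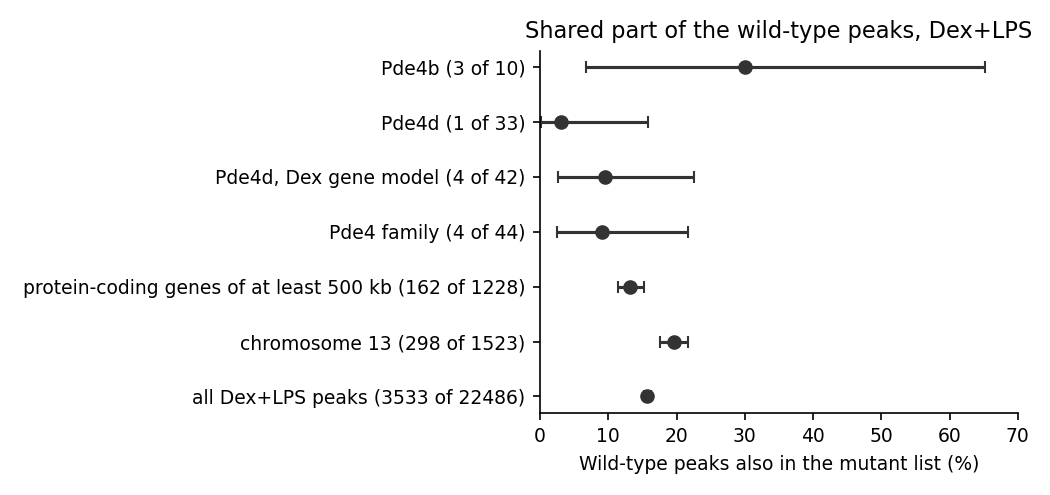
Percentage of wild-type Dex+LPS peaks that were also in the mutant list (x axis) for the rows named, with the numbers of peaks in brackets; points are the share and bars the exact 95% binomial interval. Pde4d is at 3.03%, or 9.52% with the gene model of the Dex lists, and Pde4b at 30%, all with wide intervals; Pde4a (0 of 1) and Pde4c (no peak) are not drawn.

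Under Dex alone the family's peaks were in wild-type cells and at Pde4d. Wild-type library 1 had 1 peak (chr13:108514747-108515322) and wild-type library 2 had 2 (chr13:108515141-108515797 and chr13:108516249-108516496), a mean of 1.5 ± 0.71 (SD, n = 2). Mutant libraries 1 and 2 had none at any member. The groups did not overlap, but these lists are short. A peak was assigned to 1.09% and 1.86% of protein-coding genes in wild-type libraries 1 and 2, and to 0.142% and 0.183% in mutant libraries 1 and 2, so an absent mutant peak at a given gene is the usual case. The first peaks of both wild-type libraries overlapped by 182 bp, whereas 44.7% of library 1 peaks overlapped one of library 2. Chromosome 13 held 11.9% and 14.9% of the wild-type Dex peaks on 4.42% of the chromosome length (as spanned by RefSeq genes). The Pde4d peaks were 1 of these 49 chromosome 13 peaks in library 1 and 2 of 127 in library 2. The labels do not state how the Dex libraries were replicated, and a technical spread cannot be told apart from a biological one.

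The Dex peaks of Pde4d lay where the Dex+LPS lists name another gene. The Dex lists give Pde4d a span of 108449948 to 109953461, which starts 204 kb upstream of the span in the Dex+LPS lists (108654105 to 109955969). All 3 Dex peaks fell in this extra stretch, 138 to 139 kb before the later start, and were called inside Pde4d. The Dex+LPS lists had 9 peaks in the same stretch outside their own Pde4d assignment, 6 wild-type-specific and 3 shared, and assigned them to Depdc1b, the upstream neighbour. Of these, 8 formed a run of 16.2 kb from 108501653 to 108517835, with 5 wild-type-specific and 3 shared peaks. The Dex peak of library 1 contained a shared peak of this run (chr13:108514885-108515084) whole, with 200 bp in common and centres 50 bp apart. The first Dex peak of library 2 missed it by 56 bp, and the other lay 1139 bp from the next shared peak (chr13:108517636-108517835). By overlap, 1 of the 3 Dex peaks was thus found again under Dex+LPS, where 23.9% of all wild-type Dex peaks were (25.2% in library 1 and 23.2% in library 2). With centres within 1 kb it was 2 of 3, against 45.7%. With the span of the Dex lists, a choice made after seeing the data, Pde4d counted 38 peaks of the wild-type alone, 4 shared and 3 of the mutant alone, and 9.52% of its wild-type peaks were shared (2.66 to 22.6%). The share at Pde4d was thus 3.03% or 9.52%, depending on where the gene was taken to start, with overlapping intervals. Both values were below the 15.7% of all peaks, and the difference was not tested.

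Pde4d had the highest number of Dex+LPS peaks among genes of its length class, though not the highest density. Its 36 peaks ranked first of the 227 protein-coding genes of at least 500 kb, whose median was 4, and 34 of those genes had none. Per Mb of gene, Pde4d had 27.7 peaks and ranked 8, and Pde4b had 21.2 and ranked 17, against a median of 4.99. Among the 59 genes of at least 1 Mb Pde4d ranked first by density (median 3.38 per Mb). Foxp1, a forkhead transcription factor gene, led the longer list with 55.2 per Mb, and Dmd, the dystrophin gene and the longest at 2390 kb, had 1 peak. Dmd lies on the X chromosome. Chromosome 13 as a whole was denser than the other autosomes, with 14.2 against 9.75 Dex+LPS peaks per Mb. Relative to its own chromosome, Pde4d had 1.95 times the density and ranked 17, and Pde4b 2.28 times and ranked 10. With peaks inside the RefSeq gene body alone, Pde4d had 23.8 and Pde4b 15.4 per Mb.

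**Figure D5:**
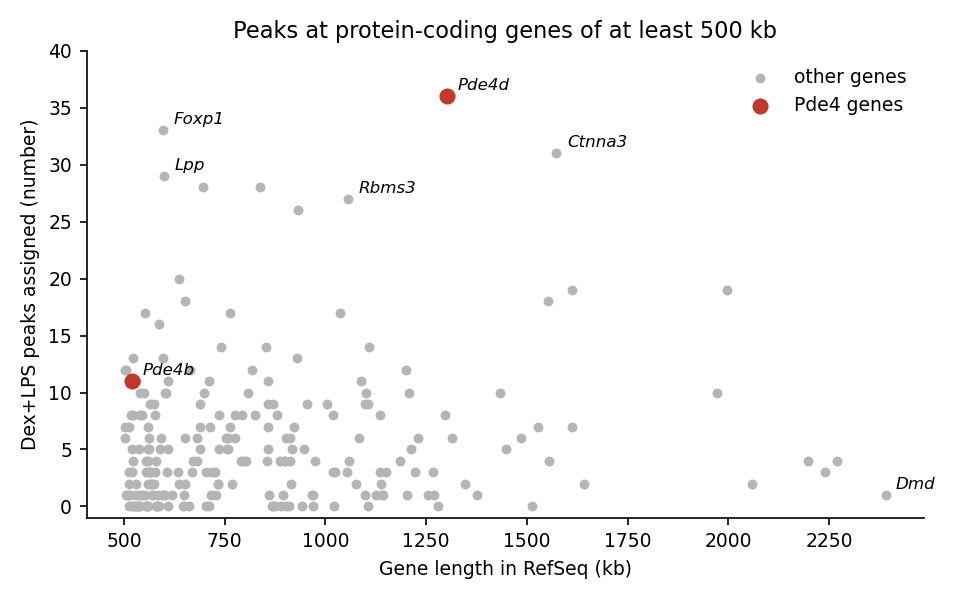
Number of Dex+LPS peaks assigned to a gene (y axis) against its length in kb (x axis) for the 227 protein-coding genes of at least 500 kb; each point is a gene. Pde4d has 36 peaks, the highest count, and Pde4b has 11, above the median of 4.

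The genes whose counts in the 3 classes were closest to those of Pde4d were found by Euclidean distance over the square roots of the counts. They were Tns3, a focal adhesion tensin (31, 2 and 1 peaks in the order of the classes above; distance 0.85), Foxp1 (27, 4 and 2; 1.15), Hmga2, a chromatin architectural factor (22, 2 and 1; 1.28), Rbms3, an RNA-binding protein (23, 3 and 1; 1.35) and Lpp, a LIM domain protein of cell adhesions (23, 4 and 2; 1.36). Tns3 and Hmga2 are 233 and 115 kb long, far shorter than Pde4d. Compared over the shares of the classes, Tns3, Hmga2 and Rbms3 were again among the 5 nearest.

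Among 74 other genes of the cAMP pathway, in 6 lists by role, wild-type-specific peaks stood at 39, shared ones at 15 and mutant-specific ones at 6 (52.7%, 20.3% and 8.11%, against 30.6%, 9.37% and 5.36% of protein-coding genes), and the median gene had 1 peak against 0 over all protein-coding genes. Inside gene bodies alone it was 28, 11 and 4 of the 74, against 4594, 1242 and 704 of 21887 protein-coding genes. Gene length was not matched here. The 82.8% of genes of at least 500 kb with a wild-type-specific peak does not describe these 74. Only Pde1c (583 kb) is that long among them, and it had no peak. An enrichment of the pathway was not tested. Of the receptors and G proteins, which set cAMP production, 8, 2 and 1 of 12 had an assigned peak of these classes. Inside the gene body it was 2, 0 and 0, so most of these genes had peaks only outside it. Ptger2 and Ptger4, receptors of prostaglandin E2 that raise cAMP, had 2, 1 and 1 and 3, 0 and 0 peaks, and Adora2a, an adenosine receptor, 1 wild-type-specific peak. Of 10 adenylyl cyclases, which make cAMP, wild-type-specific peaks were at 5, and each other class was at 1. Adcy2 had 9, 1 and 1 peaks, Adcy8 had 5 wild-type-specific peaks and Adcy1 had 2.

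Among the effectors 7, 3 and 2 of 13 genes had peaks of these classes. Prkar2b, a regulatory subunit of protein kinase A, had 5 wild-type-specific and 2 shared peaks. Pkib, which encodes an inhibitor of that kinase, had 2 shared and 2 mutant-specific peaks and no wild-type-specific one, and its relative Pkig had 1 wild-type-specific and 1 mutant-specific peak. Of 11 anchoring proteins, which hold the kinase near its substrates, 5, 4 and 1 had such peaks. Akap13 had 13 wild-type-specific and 2 shared peaks, Pakap (listed as Akap2) had 7, 3 and 1, and Akap6 had 3 and 1. Of 8 CREB factors and coactivators, wild-type-specific peaks were at 5, a shared one at 1 and mutant-specific ones at none. Creb5 led them with 5 wild-type-specific peaks and 1 shared peak, followed by Atf1 and Crtc3 with 2 wild-type-specific peaks each.

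The other phosphodiesterases together had fewer peaks than Pde4d. Of 20 genes, wild-type-specific peaks were at 9, shared ones at 4 and mutant-specific ones at 1, with 33 peaks in all against 36 at Pde4d alone. Pde1a, a calcium-dependent enzyme, had 9 wild-type-specific and 2 shared peaks. Pde7b, which is specific for cAMP, had 6 wild-type-specific peaks and 1 mutant-specific peak, and Pde10a had 3 wild-type-specific peaks. Under Dex alone, wild-type library 2 had 1 peak assigned to Pde7b, 3 to Adcy2 and 2 to Ptger2, that is 3 of the 74 genes where 1.86% of protein-coding genes had a peak. The Pde7b peak and 1 Adcy2 peak lay inside the gene. The other Adcy2 peaks lay upstream, at -158015 and -175745 bp from the gene start. Both Ptger2 peaks lay beyond the end of the gene, 27907 and 41135 bp from its start. The other Dex libraries had a peak at 0 of the 74, where 1.09% (wild-type library 1), 0.142% and 0.183% (mutant libraries 1 and 2) of protein-coding genes had one, so a count of 0 is near the background.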

How the data were processed

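GR ChIP-seq peaks were taken from 3 merged Dex+LPS lists and 4 Dex libraries of mouse embryonic fibroblasts. The deposited values were positions and distances in base pairs (build mm10), with no count, score or p-value of a peak. BWA 0.7.13, Picard 1.119 and MACS2 2.1.0 are named in the submitters' processing notes, without their roles. Per the file names, libraries were merged, peaks of knockout cells removed and the Dex lists held to a false discovery rate. The number of merged libraries and their depth can change how many peaks a list holds, and a removed knockout peak cannot be seen.

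Members were the rows with a Pde4 symbol. Members and lists were chosen with earlier results of these data known. Named genes were the members, the 3 genes of each cAMP list with most peaks (ties in alphabetical order), the 5 genes most like Pde4d and the nearest protein-coding neighbours. The exact permutation test planned for the Dex libraries was not given, because the rule used these lists. Genes, lengths and starts came from RefSeq (GRCm38.p6); 99.9% (Dex+LPS) and 100% (Dex) of peaks carried an identifier found there. Motifs in peaks were planned but no genome was used here; promoters were searched instead. Peaks overlapped at 1 bp or more, checked against bedtools 2.31.1 with 500 of 500 equal answers on simulated intervals. Exact intervals came from scipy 1.17.1 under Python 3.11.15.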

Additional observations from a re-analysis of the deposited data

How the results depend on the processing

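Of 39 recomputed values, 32 stayed within 1.5 times the reported count, the interval or 1 SD, under RefSeq gene bodies, peaks within 1 kb counted as 1 site, stricter overlap and left-out Dex libraries. With the Pde4d span of the Dex lists, chosen after seeing the data, shared peaks numbered 4 at Pde4d and 7 in the family, and the cause is the added stretch itself. Within RefSeq gene bodies the wild-type Dex libraries had 0 peaks at the family. Leaving out a wild-type Dex library gave 1 to 2 peaks, and leaving out a mutant library gave 0. With centres within 1 kb, 2 Dex peaks were found again under Dex+LPS. The density rank of Pde4d was 1 among genes of at least 1 Mb, a shorter list, and 17 relative to its chromosome. By class shares, 3 of the 5 most similar genes stayed. No paired analysis was possible because the Dex+LPS lists were merged, and for the Dex libraries no test was given by choice, since the family was selected on these lists. A stricter peak threshold and motif settings within peaks were not run, since no peak score or genome was used here. Depth was unknown, so no limit from depth can be given.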

Other observations

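Cdc37, a kinase chaperone gene 15.8 kb before Pde4a, had 2 shared peaks (chr9:21135177-21135376 and chr9:21136023-21136222), and Keap1, the sensor of oxidative stress 16.5 kb after it, had 1 wild-type-specific peak. Within 200 kb of Pde4a, 12 peaks were found, 4 in each class, its own peak included. The 4 mutant-specific peaks stood 134 to 150 kb before Pde4a at the adhesion genes Icam1, Icam4 and Icam5, chosen after their values were seen. Within 200 kb of Pde4c, 11 peaks were found, 8 wild-type-specific and 3 shared, although Pde4c and its nearest neighbours Gm3336 and Rab3a had none. Depdc1b, before Pde4d, had 12 wild-type-specific and 3 shared peaks, of which 9 lie in the Pde4d span of the Dex lists, and Rab3c, after it, had 5 and 1. On the sides of Pde4b, Sgip1 had 1 wild-type-specific peak and Gm12789 none.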
